A study of Homo sapiens with 6 samples.

Results

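The collagen gene family was followed in AGS, a cell line grown from a human stomach adenocarcinoma, after silencing of SRSF2. Members were taken by name, as every gene entry of the deposited count table called COL, a number, A and a number, which gave 44 entries of 56303 in the table. Antisense transcripts, pseudogenes and collagen-like genes with other names were not members. The comparison has a pair of groups, written here as siSRSF2 (3 libraries of AGS cells given a small interfering RNA against SRSF2, with the genotype label of a knockdown) and WT (3 libraries of AGS cells labelled wild-type). SRSF2 encodes a serine/arginine-rich protein that binds exons and promotes their inclusion during splicing. All 6 libraries came from the same line in the same medium. The labels do not say whether WT cells received a control siRNA, how long the siRNA acted, or whether each library was a culture of its own. The p-values therefore reflect library-to-library spread alone, and that spread could be technical.

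Collagens are secreted or membrane-bound proteins in which 3 alpha chains wind into a triple helix, and each COL gene encodes 1 alpha chain. Fibrillar types (I, II, III, V, XI, XXIV and XXVII) build rope-like fibrils, type IV forms the sheet of the basement membrane under epithelia, and type VII forms the anchoring fibrils that tie that sheet to the tissue below. Fibril-associated collagens (the FACIT group) coat fibrils, type VI forms beaded filaments, and some collagens span the cell membrane. Epithelial cells typically make type IV and type VII chains, whereas types I and III are best known from fibroblasts.

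The counts per library summed to between 26610937 and 36651623 in siSRSF2 and to between 47518943 and 50021152 in WT. SRSF2 (chromosome 17) had 586, 840 and 861 counts in siSRSF2 libraries, against 2122, 2118 and 2093 in WT libraries, a log2 fold change of -0.98 (SE 0.064). For comparison with each marker list, 30.1% of all tested genes were higher and 29% were lower, by the test described below. Of 8 epithelial markers, all tested, 3 rose, 1 fell and 4 did not pass. The keratin gene KRT8, by far the highest, fell and averaged 2776 CPM in siSRSF2 and 3236 CPM in WT (CPM, the usual depth-scaled count, here on TMM-adjusted library sizes), while CDH1, the E-cadherin gene, was near the floor at 0.276 CPM in siSRSF2 and 0.219 CPM in WT. The markers that rose were the transcription factor gene ELF3 (51.4 CPM in siSRSF2 and 8.37 CPM in WT, log2 fold change 2.62) and the claudin genes CLDN7 (2.56) and CLDN4 (1.79). Of 8 fibroblast markers, 3 (PDGFRA, DPT and PDPN) never exceeded 10 counts, 3 of the 5 tested rose and 2 fell, and the list summed to between 33.4 and 34.5 CPM in siSRSF2 and between 48.6 and 51.5 CPM in WT. Of 6 endothelial markers, both of the 2 tested fell (sums of 1.25 to 2.28 CPM in siSRSF2 and 3.27 to 3.5 CPM in WT). Of these 2, PECAM1 had 6, 2 and 12 counts in siSRSF2 and 42, 39 and 36 in WT. PECAM1 passed the low-count filter described below through the WT group, so its fall was partly set by entering the test at all. The leukocyte markers PTPRC, CD3E and ITGAM never exceeded 10 counts in any library. The part of these markers in the collagen results was not tested.

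More collagen genes rose than fell in siSRSF2 cells, while 4 of the 6 most abundant ones were lower. Of the 44 members, 32 passed the filter on low counts and entered the test. By edgeR's quasi-likelihood test with Benjamini-Hochberg adjustment over all 23689 tested genes, 18 of the 32 (56.2%) were higher, 5 (15.6%) were lower and 9 did not pass. Among all tested genes, 30.1% were higher, 29% were lower and 59.1% were either by the same rule. The median log2 fold change was 0.56 over the 32 members and 0.02 over all tested genes. The groups did not overlap for 22 of the 32 members, against 63.8% of all tested genes. The filter's cutoff was reached in 3 siSRSF2 and fewer than 3 WT libraries by 4 members, and the other way by 1. Among those 4, COL2A1, COL14A1 and COL25A1 are counted as higher, so the filter partly set these counts. Without the filter, all 44 members gave 18 higher and 7 lower, with a median log2 fold change of 0.31. In that fit 6490 of all 44361 genes were higher and 7613 were lower. With libraries scaled by their totals alone, which moved the median of all genes to 0.15, the members were 18 higher and 4 lower. On that scale 8560 of all 23689 genes were higher and 5492 were lower. In a bulk sample, a difference in RNA per cell cannot be told apart from a difference in the share of cells that make it.

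Counts of calls are given by level, without a test of the difference between levels. Of the 6 collagen genes with the highest WT CPM, 4 fell (COL7A1, COL4A2, COL12A1 and COL4A1), 1 rose (COL5A2) and 1 did not pass (COL5A1). Among all 1416 genes at or above the WT level of COL4A1, the lowest of these 6, 66.9% fell and 17.3% rose, so that the share of these collagens that fell was near that of other abundant genes. The COL7A1 and COL4A2 calls did not hold under every alternative, as given with these genes. Of the other 19 genes of at least 1 CPM in the higher group, 14 rose, 1 fell (COL5A3) and 4 did not pass, where the 16571 genes of that range were 35% higher and 33.8% lower. All 25 together were 15 higher and 5 lower, where all 17987 genes of that level were 33.6% higher and 36.4% lower. Those 6 genes made up 85.2% of all collagen CPM in siSRSF2 and 90.7% in WT. The summed collagen level was 3376, 3425 and 3196 CPM in siSRSF2 libraries, against 3247, 3124 and 3160 CPM in WT libraries. These sums overlapped, with a ratio of means of 1.05, and no test was made on a sum over chosen genes. Scaled by library totals, the log2 ratio of the summed level was 0.20 in place of 0.07, and the groups did not overlap. On that scale collagens took between 0.339% and 0.360% of counts in siSRSF2 libraries and between 0.300% and 0.310% in WT libraries.

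**Figure D1:**
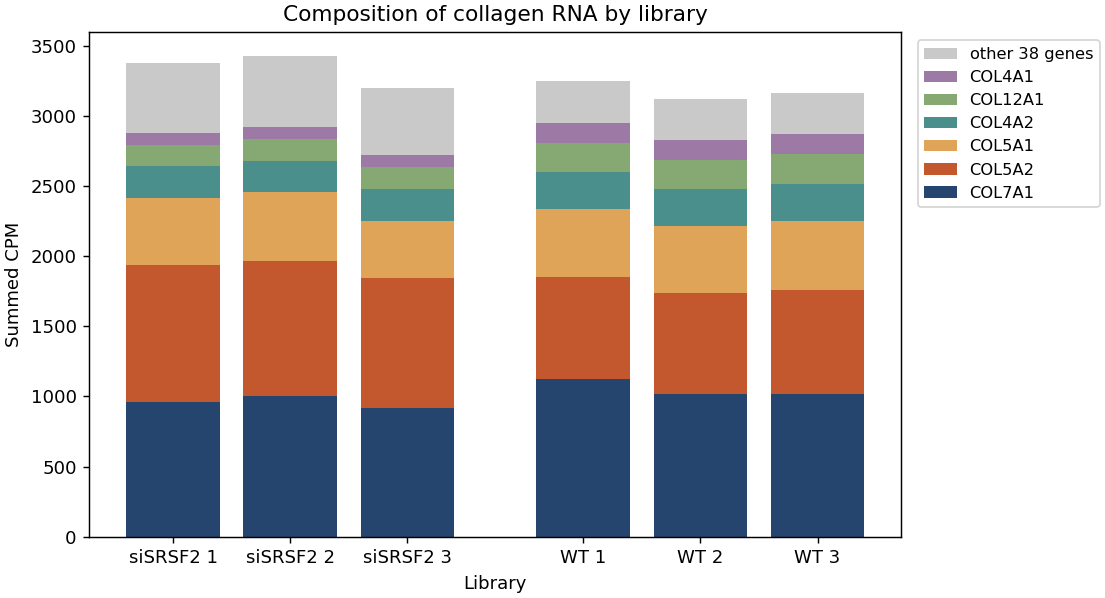
Summed CPM (vertical axis) of the 44 collagen genes in each of the 6 libraries (horizontal axis), with the 6 genes that are highest in WT shown as separate segments and the other 38 in grey. Total heights overlap on this TMM scale, at 3333 ± 120.4 CPM in siSRSF2 and 3177 ± 63.4 CPM in WT (mean ± SD, n = 3 each), while the grey segment is taller in every siSRSF2 library.

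Levels of different genes were compared as CPM per kilobase of exon. COL5A2 was highest in both groups, at 133.8 ± 3.43 in siSRSF2 and 101.9 ± 1.68 in WT (SD, n = 3 each), followed by COL7A1 at 86.3 ± 3.86 in siSRSF2 and 94.7 ± 5.87 in WT. In WT the library values of these neighbours overlapped, and in siSRSF2 they did not. COL5A1 came next in both groups (40.9 in siSRSF2 and 43.3 in WT), and then COL4A2 (26.2 in siSRSF2 and 30.6 in WT). COL4A1 ranked 5 in WT, overlapping COL12A1, and ranked 7 in siSRSF2, below COL4A5 and COL12A1. Among the 25 genes ranked, COL9A3 moved furthest up the order, with rank 10 in siSRSF2 and rank 17 in WT. COL5A3 moved furthest down, with rank 17 in siSRSF2 and rank 12 in WT. These ranks are not exact, since library values of neighbours overlapped. COL9A3 overlapped COL1A1 in siSRSF2 and COL10A1 in WT, and COL5A3 overlapped COL13A1 in siSRSF2 and COL27A1 in WT.

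**Figure D2:**
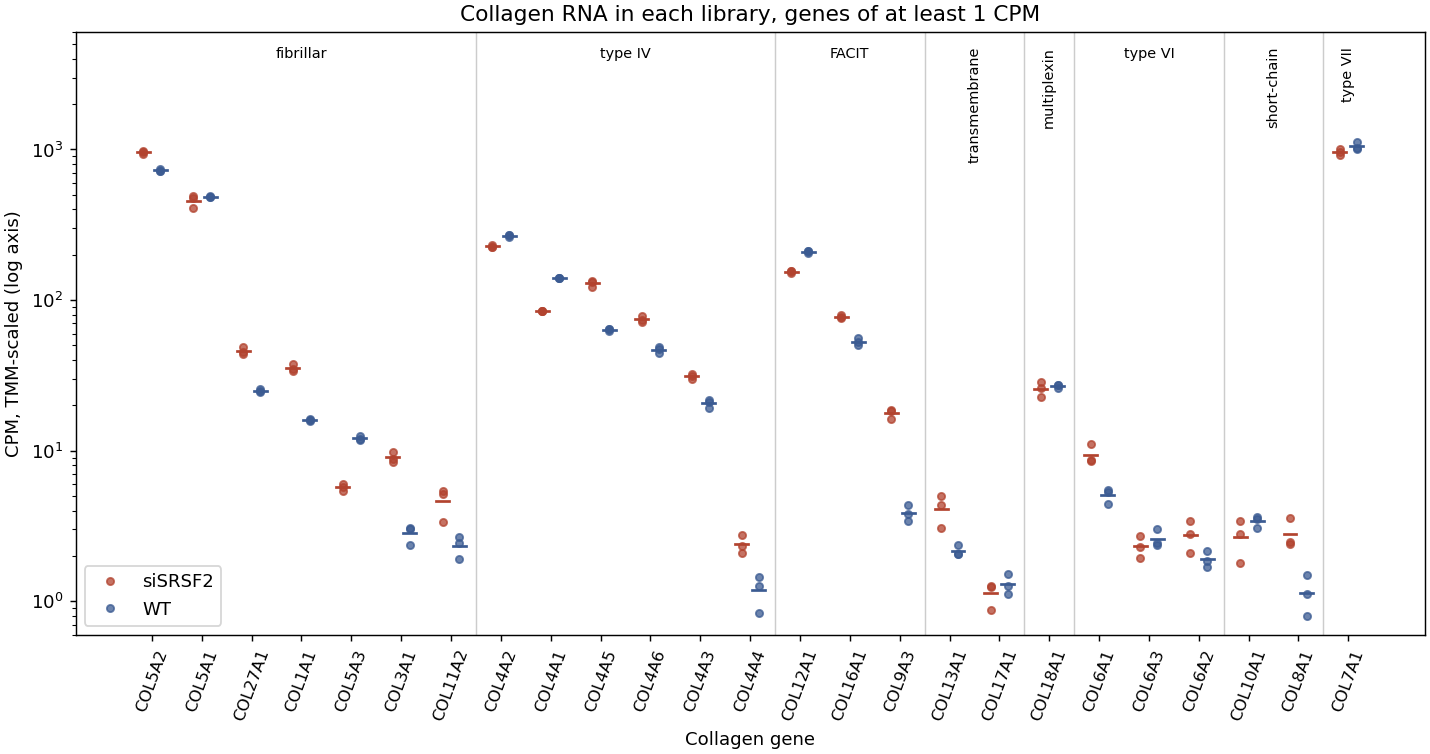
CPM in every library (points, log axis) and group means (bars) for the 25 collagen genes of at least 1 CPM in the higher group, arranged by class, with siSRSF2 to the left of WT for each gene. Clear separation is seen for COL1A1, COL3A1, COL4A1, COL4A5 and COL9A3, whereas COL5A1, COL18A1, COL6A3, COL10A1 and COL17A1 overlap.

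The genes of type IV collagen, the network former of basement membranes, went in opposite directions. COL4A1 and COL4A2 encode the chains of the network found under nearly all epithelia and vessels, COL4A3 and COL4A4 chains combine with COL4A5 in the kidney glomerulus and a few other membranes, and COL4A5 with COL4A6 forms a network known from smooth muscle and skin. All 6 genes passed the test, 4 higher and 2 lower, where 30.1% of all tested genes were higher and 29% were lower. COL4A1 (chromosome 13, 110148963 to 110307149, minus strand) had 84.7, 84.7 and 84.1 CPM in siSRSF2 libraries, against 141, 140.4 and 139 CPM in WT libraries. All siSRSF2 values lay well below all WT values, a log2 fold change of -0.73 (SE 0.045, edgeR adjusted p = 1.33e-13). COL4A2 (chromosome 13, 110305812 to 110513027, plus strand) had 231, 227 and 226 CPM in siSRSF2, against 269, 261 and 269 CPM in WT. Its groups did not overlap, but the change was small (log2 fold change -0.23, SE 0.043, edgeR adjusted p = 4.91e-05), and a test for a change beyond 1.2-fold was not passed (adjusted p = 0.712).

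The other type IV genes all rose. COL4A5 (chromosome X, 108439844 to 108697545) had 132, 134 and 123 CPM in siSRSF2 and 64.7, 62.3 and 64.0 CPM in WT, a rise of 2.04-fold (edgeR adjusted p = 6.36e-16). COL4A6 (chromosome X, 108155607 to 108439497) had 73.4, 78.9 and 72.0 CPM in siSRSF2 and 44.2, 48.6 and 47.2 CPM in WT, a rise of 1.60-fold. Neither gene's groups overlapped. COL4A3 (chromosome 2, 227164565 to 227314792) averaged 31.2 ± 1.16 CPM in siSRSF2 and 20.6 ± 1.25 CPM in WT, and COL4A4 (chromosome 2, 227002711 to 227164113) averaged 2.39 ± 0.326 CPM in siSRSF2 and 1.18 ± 0.318 CPM in WT (SD, n = 3 each). Falls and rises together, the class summed to 550.4 ± 9.30 CPM in siSRSF2 and 538.5 ± 3.38 CPM in WT. Per kilobase of exon, COL4A5 stood above COL4A1 in siSRSF2 (14.9 against 10.3) and below it in WT (7.29 against 17.1).

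Type IV genes lie head to head in pairs, each pair transcribed outward from a shared stretch of DNA. By RefSeq start sites (GRCh38.p14), 126 bases separate COL4A1 from COL4A2, 418 bases separate COL4A4 from COL4A3, and 379 bases separate COL4A6 from COL4A5. Parts of these stretches are printed because the members of each pair moved in the same direction while the pairs differed. The sequences below come from RefSeq and read along the plus strand toward COL4A2 (chr13:110307158-110307266), COL4A3 (chr2:227164374-227164564) and COL4A5 (chrX:108439588-108439837), without exon bases of the table. They cover 109, 191 and 250 bases, and the part nearer COL4A4 and COL4A6 is not shown. In the count table the COL4A2 entry begins 1472 bases before its RefSeq start and so reaches past the COL4A1 start. Capitals mark a GC box (GGGCGG on either strand) or a CCAAT box (CCAAT on either strand), which did not overlap each other.
COL4A1-COL4A2: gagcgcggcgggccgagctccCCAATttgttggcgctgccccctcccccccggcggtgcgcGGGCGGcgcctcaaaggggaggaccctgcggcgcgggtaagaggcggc
COL4A4-COL4A3: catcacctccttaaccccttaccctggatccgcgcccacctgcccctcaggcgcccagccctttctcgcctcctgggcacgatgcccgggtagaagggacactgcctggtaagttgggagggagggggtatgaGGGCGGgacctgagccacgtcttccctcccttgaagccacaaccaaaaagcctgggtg
COL4A6-COL4A5: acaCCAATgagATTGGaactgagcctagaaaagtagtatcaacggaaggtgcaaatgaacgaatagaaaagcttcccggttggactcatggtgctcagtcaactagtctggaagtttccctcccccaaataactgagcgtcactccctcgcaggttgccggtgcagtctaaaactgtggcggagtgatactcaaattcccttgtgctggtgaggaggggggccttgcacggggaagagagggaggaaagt
The printed part between COL4A1 and COL4A2, at 78.0% G or C, held 1 GC box and 1 CCAAT box. That before COL4A3 held 1 GC box and no CCAAT box, and that before COL4A5, at 51.2% G or C, held 2 CCAAT boxes and no GC box. In full windows of 250 bases before each start, COL4A3 had 2 GC boxes and COL4A6 had 3 CCAAT boxes.

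The ratio between the 2 genes of a pair did not overlap between groups in the pairs COL4A1/COL4A2 and COL4A5/COL4A6. It was taken within each library, on counts per exon length, which removes the library scaling. The log2 ratio of COL4A1 to COL4A2 was -1.36, -1.33 and -1.34 in siSRSF2 libraries, against -0.85, -0.81 and -0.86 in WT libraries. The groups lay far apart relative to their spread, with a difference of -0.50 (SE 0.018). For COL4A5 over COL4A6 it was 0.94, 0.85 and 0.86 in siSRSF2, against 0.64, 0.44 and 0.53 in WT, a difference of 0.35 (SE 0.062) with no overlap. The ratio of COL4A3 to COL4A4 overlapped between groups (difference -0.45, SE 0.30). It was -0.18 without WT replicate 2 and -0.67 without WT replicate 3, and COL4A4 counts were as low as 38. The exact permutation test (2-sided) gave p = 0.1 for the pairs COL4A1/COL4A2 and COL4A5/COL4A6, the smallest that 3 against 3 libraries allow, and p = 0.2 for COL4A3/COL4A4. Adjusted over the 5 neighbouring pairs tested, these were 0.167, 0.167 and 0.25.

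The other neighbours set by position were COL6A1 with COL6A2 and COL3A1 with COL5A2. The ratio of COL6A1 to COL6A2 overlapped between groups (difference 0.36, SE 0.37, exact permutation p = 0.5), and was 0.06 without siSRSF2 replicate 1 and 0.17 without WT replicate 2. COL3A1 gained on its neighbour COL5A2 by 1.29 log2 units (SE 0.16, exact permutation p = 0.1), without overlap. COL5A1 and COL5A2, whose chains join in type V trimers, were added as a pair after their values were seen. Their log2 ratio was -1.69, -1.62 and -1.84 in siSRSF2, against -1.23, -1.23 and -1.24 in WT, a difference of -0.48 (SE 0.064). No p-value is given for a pair chosen in this way.

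**Figure D3:**
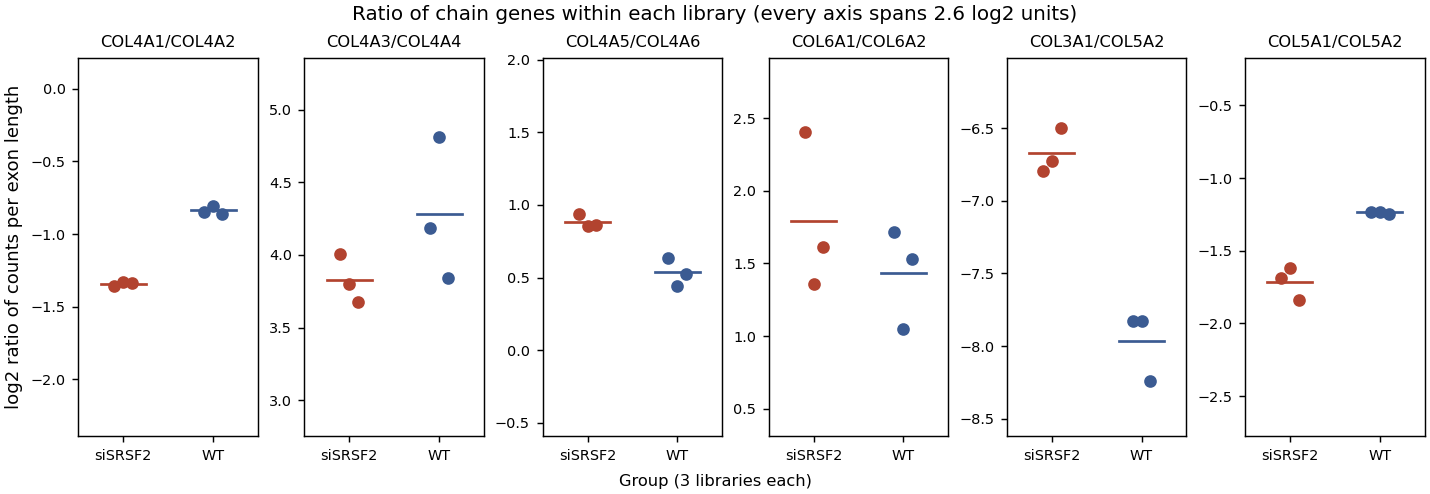
Log2 ratio of 2 collagen genes on counts per exon length (vertical axes, all of the same span) in siSRSF2 and WT libraries, with points for libraries and bars for means. The groups separate for COL4A1/COL4A2, COL4A5/COL4A6 and COL3A1/COL5A2, and overlap for COL4A3/COL4A4 and COL6A1/COL6A2. They also separate for COL5A1/COL5A2, a pair added after its values were seen.

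Among fibrillar collagens, 6 of the 9 tested genes rose, 1 fell and 2 did not pass, where 30.1% of all tested genes were higher and 29% were lower. The 6 include COL2A1, which entered the test through siSRSF2 libraries. COL5A2 (chromosome 2, 189031896 to 189179879), a chain of the type V collagen that sets fibril diameter, dominated the class by level. It had 978, 963 and 930.3 CPM in siSRSF2 libraries, against 724, 720.3 and 743 CPM in WT libraries. The rise of 1.31-fold was small but without overlap (log2 fold change 0.39, SE 0.043, edgeR adjusted p = 9.00e-09). COL5A1 (chromosome 9, 134641774 to 134844843), its usual partner, had 476, 489 and 408 CPM in siSRSF2, against 482, 479.8 and 490.3 CPM in WT. These values overlapped, with siSRSF2 replicate 3 lowest, and the test was not passed (log2 fold change -0.08, SE 0.054, edgeR adjusted p = 0.207). The sign turned to 0.05 with scaling by library totals, and the gene passed as lower without siSRSF2 replicate 2 (log2 fold change -0.14, edgeR adjusted p = 0.0338) and without the low-count filter (-0.16, adjusted p = 0.00156). COL5A3 (chromosome 19, 9959561 to 10010471), a less common type V chain, had 5.74, 5.4 and 6.0 CPM in siSRSF2, against 11.8, 12.6 and 12.0 CPM in WT. This was the lowest log2 fold change of the family, at -1.09 (SE 0.099, edgeR adjusted p = 3.79e-10). An antisense gene, CTD-2553C6.1, shares 4.0% of COL5A3 exon bases and was itself at 0.131 CPM in siSRSF2 and 0.363 CPM in WT.

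Of the type I and type III chains, best known from connective tissue, COL1A1 and COL3A1 rose and COL1A2 did not pass. COL1A1 (chromosome 17, 50183289 to 50201632), the main chain of type I collagen, had 34.0, 35.1 and 37.6 CPM in siSRSF2, against 16.2, 15.8 and 15.9 CPM in WT (2.23-fold, edgeR adjusted p = 2.86e-14). Its partner COL1A2 was under or near 1 CPM in every library (0.924 ± 0.112 in siSRSF2 and 0.740 ± 0.143 in WT) and did not pass (log2 fold change 0.31, SE 0.29). COL3A1 (chromosome 2, 188974320 to 189012746), the type III chain, had 8.47, 8.74 and 9.87 CPM in siSRSF2, against 3.06, 3.04 and 2.36 CPM in WT (log2 fold change 1.68, SE 0.13). For both COL1A1 and COL3A1 all siSRSF2 values were above all WT values. DCN, a fibroblast marker whose proteoglycan binds collagen fibrils, also rose, at 5.08 ± 0.360 CPM in siSRSF2 and 1.009 ± 0.0359 CPM in WT, whereas the fibroblast markers THY1 and FAP fell (log2 fold changes -0.88 and -0.95).

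Fibrillar genes known from cartilage were COL27A1 and COL11A2, which rose, COL2A1, which entered the test through siSRSF2 libraries, and COL11A1, which was not tested. COL27A1 (chromosome 9, 114155560 to 114312511) had 48.7, 45.4 and 44.2 CPM in siSRSF2 and 24.6, 25.8 and 24.8 CPM in WT, a rise of 1.84-fold. COL11A2 (chromosome 6, 33162681 to 33192499) had 5.41, 5.14 and 3.35 CPM in siSRSF2 and 2.69, 1.90 and 2.44 CPM in WT, with siSRSF2 replicate 3 closest to WT (log2 fold change 0.97, SE 0.18). COL2A1, the main chain of cartilage, had 18, 16 and 24 counts in siSRSF2 and 13, 6 and 6 in WT. It reached the filter's cutoff in 3 siSRSF2 libraries and 1 WT library, so a difference was partly set by entering the test at all. COL11A1 had 2, 2 and 4 counts in siSRSF2 and 6, 6 and 2 in WT.

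The FACIT collagens, which decorate fibrils, were divided. COL12A1 (chromosome 6, 75084326 to 75206051), which links fibrils to neighbouring matrix, fell. It had 152, 156 and 156 CPM in siSRSF2, against 206, 211 and 213 CPM in WT, a log2 fold change of -0.44 (SE 0.043, edgeR adjusted p = 1.63e-09). COL16A1 (chromosome 1, 31652247 to 31704319) rose, with 76.3, 79.4 and 76.8 CPM in siSRSF2 and 56.0, 52.6 and 50.1 CPM in WT (log2 fold change 0.55, SE 0.052). Neither pair of groups overlapped.

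COL9A3 showed the largest fold rise among collagen genes of at least 1 CPM. This gene (chromosome 20, 62816244 to 62841159, plus strand) encodes a chain of type IX collagen, which coats cartilage fibrils. It had 18.3, 18.6 and 16.3 CPM in siSRSF2 libraries, against 3.78, 3.39 and 4.36 CPM in WT libraries, 4.6-fold higher (log2 fold change 2.20, SE 0.105, edgeR adjusted p = 8.23e-16). TCFL5 on the opposite strand shares 45 exon bases (0.93%) with COL9A3 and also rose, to 92.7 CPM in siSRSF2 against 48.7 CPM in WT. Without a known strand setting, reads in those bases could belong to either gene. The partner chain gene COL9A2 stayed at 0.543 ± 0.327 CPM in siSRSF2 and 0.359 ± 0.221 CPM in WT and did not pass, and COL9A1 was not tested.

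COL14A1, a FACIT gene on chromosome 8, had 24, 27 and 23 counts in siSRSF2 and 6, 0 and 3 in WT. The gene passed the filter through the siSRSF2 group alone, so a difference was partly set by entering the test at all. Its fitted log2 fold change of 3.48 (SE 0.58) was the highest fitted value of the family. With at most 6 counts in a WT library, that value depends on the prior count.

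COL7A1 (chromosome 3, 48564073 to 48595267, minus strand), the only gene of the anchoring fibril collagen, had the highest CPM of the family in WT. It had 959, 1002 and 916 CPM in siSRSF2, against 1128, 1015 and 1015 CPM in WT. All siSRSF2 values were below all WT values, but WT replicate 1 stood above the other WT libraries and the log2 fold change was only -0.13 (SE 0.048, edgeR adjusted p = 0.0194). The call was lost without WT replicate 1 (-0.09, adjusted p = 0.181), without siSRSF2 replicate 1 (adjusted p = 0.0678) or replicate 3 (0.0592), with a filter at a mean of 1 CPM (0.156), for a change beyond 1.2-fold (adjusted p = 1) and under library-total scaling (-0.005, adjusted p = 0.937).

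Upstream sequences were examined for all 5 genes that fell, of which COL4A1 and COL4A2 are shown above. The 250 bases before the RefSeq start sites of COL5A3 (chr19:10010505-10010754), COL7A1 (chr3:48595330-48595579) and COL12A1 (chr6:75206054-75206303) are given here along the gene's own minus strand, with the same capitals and with TATAAA (the TATA box, either strand) also capitalised.
COL5A3: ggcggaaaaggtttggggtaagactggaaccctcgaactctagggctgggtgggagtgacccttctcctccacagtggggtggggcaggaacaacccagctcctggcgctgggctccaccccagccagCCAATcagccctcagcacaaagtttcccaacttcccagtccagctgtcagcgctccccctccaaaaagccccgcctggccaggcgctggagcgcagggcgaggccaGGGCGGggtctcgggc
COL7A1: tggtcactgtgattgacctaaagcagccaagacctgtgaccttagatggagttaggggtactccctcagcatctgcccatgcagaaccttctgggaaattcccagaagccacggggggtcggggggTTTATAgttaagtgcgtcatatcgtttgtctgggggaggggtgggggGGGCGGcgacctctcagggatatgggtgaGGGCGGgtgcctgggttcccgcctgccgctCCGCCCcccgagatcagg
COL12A1: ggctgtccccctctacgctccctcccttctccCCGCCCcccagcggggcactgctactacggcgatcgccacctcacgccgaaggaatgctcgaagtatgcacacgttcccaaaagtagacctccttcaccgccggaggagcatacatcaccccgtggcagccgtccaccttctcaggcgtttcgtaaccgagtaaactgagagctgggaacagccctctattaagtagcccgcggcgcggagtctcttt
RefSeq starts were matched by symbol for 32 of the 44 members, 23 of them tested. A GC box was found in the 250-base window of 5 of the 5 genes that fell and of 5 of the 10 matched genes that rose. It was in 18 of all 32 matched members (56.2%) and in 42.6% of 35116 human promoter windows. CCAAT was found in 3 of the 5 that fell, 2 of the 10 that rose and 32% of all windows, and TATAAA in 1 of 5, 2 of 10 and 10.7%. An AP-1 motif (TGANTCA) was in none of these 15 windows and in 6.57% of all windows. The windows of COL4A1 and COL4A2 share 226 bases and those of COL4A5 and COL4A6 share 121 bases, so a motif in shared bases is counted once for each gene. These matches describe letters only and carry no evidence on binding.

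Membrane-spanning collagens were mostly low. COL13A1 (chromosome 10, 69801931 to 69964275), known from cell-matrix contacts and the neuromuscular junction, had 4.97, 4.33 and 3.06 CPM in siSRSF2 and 2.06, 2.06 and 2.36 CPM in WT (log2 fold change 0.92, SE 0.18), without overlap. COL25A1, known from neurons, had 16, 42 and 24 counts in siSRSF2 and 6, 10 and 1 in WT, and entered the test through the siSRSF2 group alone (fitted log2 fold change 2.69, SE 0.51). COL17A1, the hemidesmosome collagen of basal epithelial cells, averaged 1.13 ± 0.219 CPM in siSRSF2 and 1.3 ± 0.204 CPM in WT and did not pass (log2 fold change -0.21, SE 0.25).

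Type VI collagen, the beaded-filament former, rose in 2 of 4 tested genes, where 30.1% of all tested genes were higher. COL6A1 (chromosome 21, 45981737 to 46005050) had 11.01, 8.72 and 8.51 CPM in siSRSF2 and 5.48, 4.44 and 5.31 CPM in WT (1.84-fold, edgeR adjusted p = 5.45e-07). COL6A2 (chromosome 21, 46098097 to 46132849) had 2.10, 3.43 and 2.80 CPM in siSRSF2 and 1.68, 2.17 and 1.85 CPM in WT, and the groups overlapped. Its call (log2 fold change 0.56, edgeR adjusted p = 0.0152) was lost without siSRSF2 replicate 2 (0.37, adjusted p = 0.144), without WT replicate 1 (adjusted p = 0.0778), for a change beyond 1.2-fold (0.0530) and with DESeq2 (0.0855). COL6A3 (log2 fold change -0.16, SE 0.18) and COL6A6 (0.23, SE 0.31) did not pass.

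Of the remaining tested members, COL8A1 (chromosome 3, 99638475 to 99799226), a short-chain collagen of vessels and the cornea, had 2.47, 3.58 and 2.40 CPM in siSRSF2 and 0.798, 1.12 and 1.5 CPM in WT (log2 fold change 1.32, SE 0.23). COL10A1, the collagen of hypertrophic cartilage, had 1.80, 3.40 and 2.80 CPM in siSRSF2 and 3.53, 3.06 and 3.65 CPM in WT. It did not pass (log2 fold change -0.33, edgeR adjusted p = 0.124) but passed as lower without siSRSF2 replicate 2 (-0.55, adjusted p = 0.0210) and without the low-count filter (-0.40, adjusted p = 0.0498). COL18A1 (chromosome 21, 45405137 to 45513720), whose C-terminal fragment is endostatin, averaged 25.9 ± 2.92 CPM in siSRSF2 and 26.9 ± 0.697 CPM in WT (log2 fold change -0.05, SE 0.073; 0.08 with scaling by library totals). SLC19A1, on the opposite strand, shares 16.4% of COL18A1 exon bases and fell (log2 fold change -0.70). COL8A2 did not pass (-0.03, SE 0.44).

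The 12 members left out by the filter were COL11A1, COL24A1, COL19A1, COL20A1, COL21A1, COL22A1, COL9A1, COL23A1, COL15A1, COL6A5, COL26A1 and COL28A1. None had more than 12 counts in any library. A difference in these genes was not detectable at this depth, where 3 counts correspond to between 0.0778 and 0.110 CPM in siSRSF2 libraries and between 0.0630 and 0.0657 CPM in WT libraries, counting error only.

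**Figure D4:**
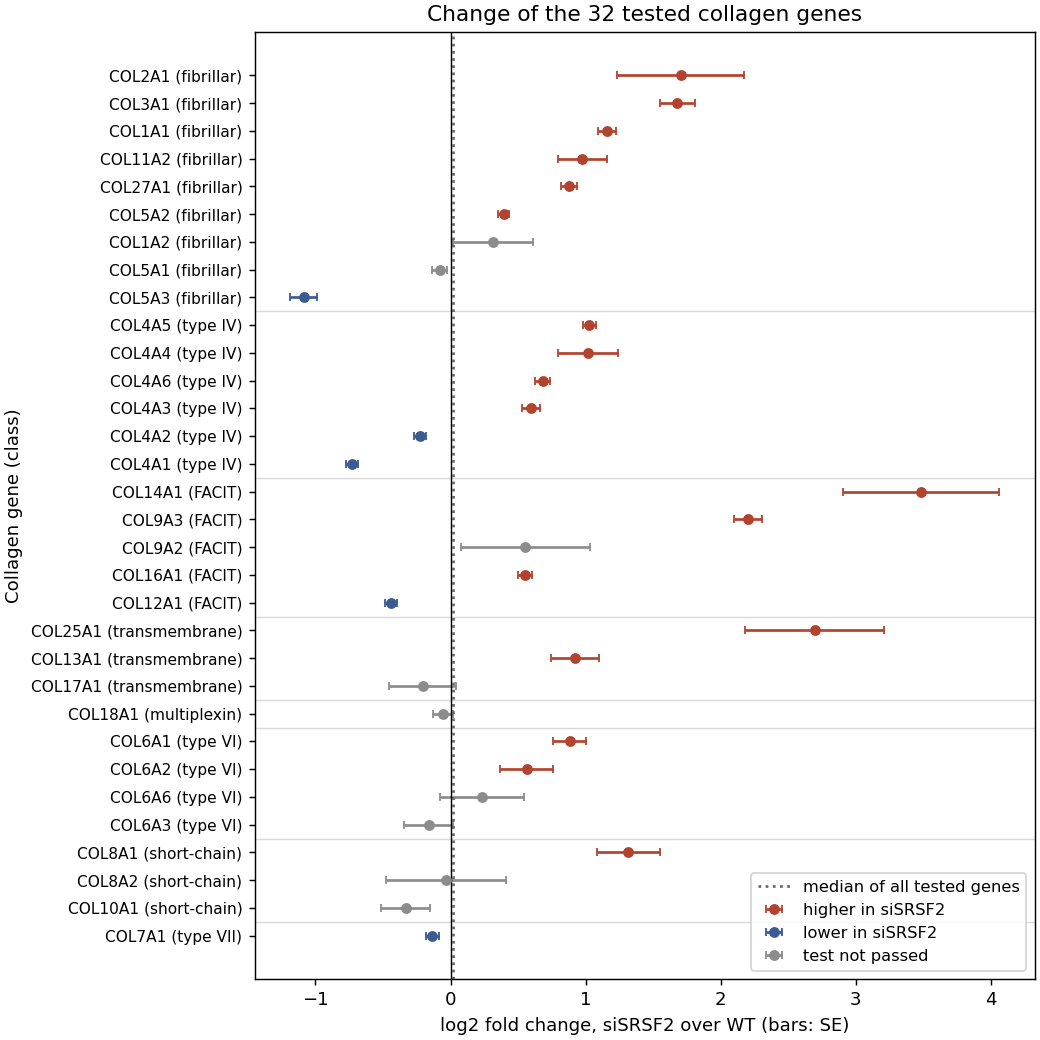
Log2 fold change of siSRSF2 over WT with its SE (horizontal axis) for the 32 tested collagen genes, grouped by class and coloured by the edgeR call, with the median of all tested genes as a dotted line. Rises occur in 6 of the classes, falls are COL5A3, COL4A1, COL4A2, COL12A1 and COL7A1, and the longest bars belong to genes of few counts.

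Genes that act on collagen were counted from lists set by function. Enzymes and chaperones that modify and fold the chains were 8 higher and 5 lower of 17 tested (median log2 fold change 0.01). Shares of all tested genes, for these 5 lists, are the 30.1% higher and 29% lower given above. The prolyl 4-hydroxylase subunits P4HA1 and P4HA2, which stabilise the helix by hydroxylating proline, rose 1.55-fold and 1.93-fold, to 133 ± 8.37 and 95.5 ± 7.49 CPM in siSRSF2 against 85.2 ± 2.25 and 49.4 ± 4.6 CPM in WT. PLOD1, a lysyl hydroxylase, rose 1.47-fold. SERPINH1, the collagen-specific chaperone HSP47, fell to 48.1 ± 1.5 CPM in siSRSF2 against 79.7 ± 2.97 CPM in WT (log2 fold change -0.73, edgeR adjusted p = 2.43e-12). Other hydroxylase genes fell too, P4HA3 with a log2 fold change of -0.31 and PLOD3 with -0.32, and PLOD2 (-0.02) did not pass.

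Genes for procollagen export from the endoplasmic reticulum were 5 higher (41.7%) and 4 lower (33.3%) of 12 (median 0.03), near the shares of all tested genes. The higher count was 3 without any 1 of the WT replicates 1, 2 and 3, with DESeq2 and without the low-count filter. CREB3L1, a transcription factor that promotes collagen secretion, rose 2.49-fold (33.5 ± 2.67 CPM in siSRSF2 and 13.4 ± 0.0378 CPM in WT), and the COPII coat gene SEC24D rose 1.62-fold. The COPII genes SAR1A (log2 fold change -0.71) and SEC13 (-0.56) fell.

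Processing and crosslinking genes were the list most often higher among these 5, at 7 higher (63.6%) and 1 lower (9.09%) of 11 tested (median 0.56). The 7 include ADAMTS14, whose groups overlapped, with 29, 8 and 30 counts in siSRSF2 and 16, 8 and 4 in WT. The higher count was between 6 and 8 under the alternatives. LOX, the lysyl oxidase that starts crosslinking, rose to 22.5 ± 1.99 CPM in siSRSF2 against 6.95 ± 0.696 CPM in WT (3.22-fold, edgeR adjusted p = 1.14e-14). PCOLCE, an enhancer of procollagen cleavage, rose 1.81-fold, LOXL3 1.48-fold and LOXL2 1.44-fold.

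Collagen receptors were 3 higher (33.3%) and 2 lower (22.2%) of 9 tested. Both discoidin domain receptor kinases rose, DDR2 to 289.6 ± 10.9 CPM in siSRSF2 against 137 ± 4.73 CPM in WT (2.11-fold) and DDR1 to 41.8 ± 2.27 CPM in siSRSF2 against 20.4 ± 1.63 CPM in WT (2.05-fold). The endocytic collagen receptor gene MRC2 rose 1.71-fold. ITGA2, which pairs with ITGB1 as a collagen-binding integrin, fell to 4.54 ± 0.726 CPM in siSRSF2 against 12.2 ± 1.36 CPM in WT (log2 fold change -1.41), and ITGB1 fell by 0.32 on the log2 scale.

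Collagen-degrading enzymes and their inhibitors were 4 higher and 4 lower of 11 tested (36.4% each), near the shares of all tested genes. The higher count was 2 without the low-count filter and 1 for a change beyond 1.2-fold. The protease inhibitor gene TIMP3 fell (log2 fold change -0.82), TIMP2 rose 1.13-fold, and the gelatinase genes MMP2 and MMP9 rose 1.23-fold and 2.82-fold, MMP9 being under 1 CPM in both groups. MMP9 had 20, 24 and 35 counts in siSRSF2 and 12, 18 and 9 in WT, and passed the filter through the siSRSF2 group. MMP1, counted as lower, had 16, 8 and 2 counts in siSRSF2 and 52, 36 and 28 in WT, and passed through the WT group. For MMP9 and MMP1 a difference was thus partly set by entering the test at all. Neither MMP2 (adjusted p = 0.251) nor TIMP2 (0.966) passed a test for a change beyond 1.2-fold, and TIMP2 also missed without the low-count filter (0.162).

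**Figure D5:**
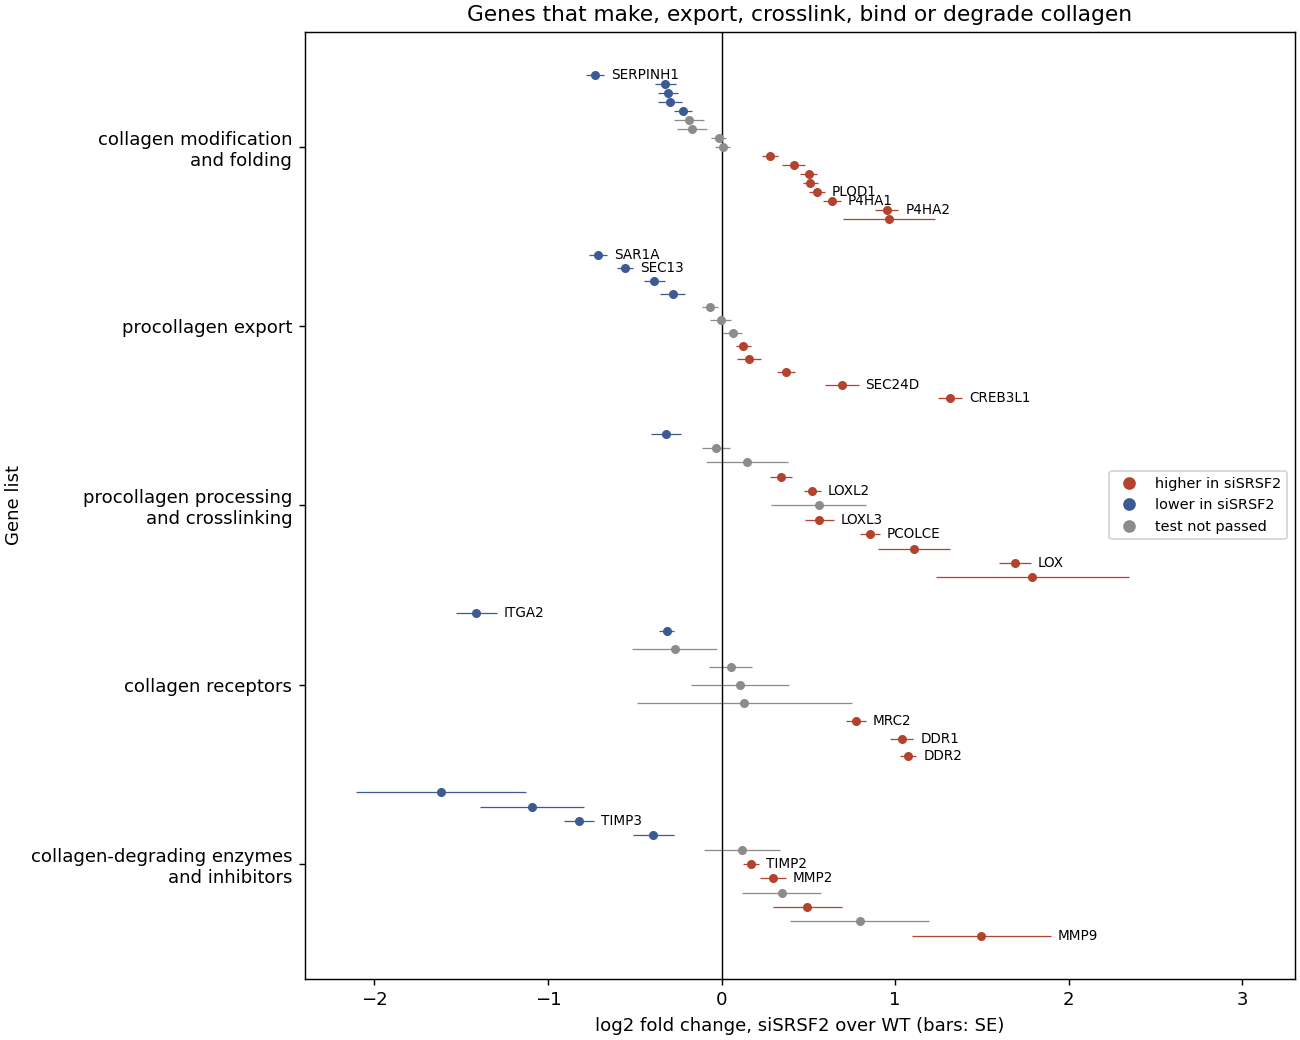
Log2 fold change of siSRSF2 over WT with its SE (horizontal axis) for the tested genes of the 5 lists (vertical axis), coloured by the edgeR call, with the 4 genes of smallest p per list named. Crosslinking genes lie mostly to the right, with LOX at 1.69, while ITGA2 at -1.41 and SERPINH1 at -0.73 lie to the left.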

How the data were processed

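The table the authors deposited holds raw counts of reads for each gene, without normalization. HISAT2 2.0.5 and featureCounts 1.5.0-p3 are named in the submitters' processing notes, which give the build as mm10. The table holds human gene names, and 34 of 44 collagen entries had the span of GENCODE release 29, so positions are read as GRCh38. How strand and reads with several matches were treated is not given in the sources used. The tests ran in edgeR 4.0.16 under R 4.3.3. Genes were kept by filterByExpr (minimum count 10), which left 23689 genes, and libraries were scaled by TMM. A robust quasi-likelihood F test compared siSRSF2 with WT over all these genes, with Benjamini-Hochberg adjustment at 0.05, and SEs came from the log2 fold change and F. Ratios within libraries were tested by exact permutation for the 5 pairs set by position. The pipeline was tested on simulated data. Members and lists were chosen with earlier results of these data known. Values per library are given for members of at least 1 CPM, and for each other list up to 4 members of smallest p are named. Some genes outside this rule (markers, ITGB1, P4HA3, PLOD2, PLOD3, ADAMTS14, MMP1, TIMP4) were named after their values were seen. Alternatives were RLE factors, library totals, DESeq2 1.42.0, other filters, a 1.2-fold threshold, the replicate block and each library left out. The summed level of the leukocyte marker list is not reported here.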

Additional observations from a re-analysis of the deposited data

How the results depend on the processing

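Of 23 collagen calls, 22 kept their direction and call with library totals, 23 with RLE factors and 22 with DESeq2. Tested against a change of 1.2-fold, 3 collagen genes were lower in place of 5, 1 modification gene was lower in place of 5, 3 export genes were higher in place of 5, no processing gene was lower in place of 1, 1 receptor gene was lower in place of 2 and 1 degradation gene was higher in place of 4, as a stricter threshold must give fewer calls. Of all calls, 60.9% were higher with library totals and 51.0% with TMM. Scaling by library totals gave 3 lower modification genes, 0 lower processing genes and a log2 ratio of summed collagen of 0.20 (0.1974) in place of 0.07. Export genes higher were 3 with DESeq2 and 3 without the filter, and between 3 and 5 with 1 library left out (3 without WT replicate 1, 2 or 3). Higher degradation genes were 2 without the filter, and lower ones 2 with a mean CPM of at least 1. That setting leaves out MMP1 (0.285 CPM in siSRSF2 and 0.823 CPM in WT) and TIMP4 (0.490 and 1.04 CPM) by their level. The cause of the other shifts with scaling, method, filter and libraries was not tested. Signs reversed only in genes that did not pass: with library totals COL8A2 (0.10), COL18A1 (0.076) and COL5A1 (0.047), and with 1 library left out COL8A2 (-0.30 to 0.28, and 0.12 without WT replicate 1), COL9A2 (-0.0012 to 1.17), COL6A6 (-0.037 to 0.52) and COL18A1 (-0.14 to 0.025). With 1 library left out, higher collagen genes ranged from 17 to 18 and lower ones from 4 to 7. Over all genes, of which 24052 to 25111 were tested, 6596 to 6915 were then higher and 6363 to 6926 lower. Equal replicate numbers did not pair the libraries (correlations of deviations from -0.05 to 0.01). With the replicate block 18 collagen genes were higher and 5 lower, where 6927 of all 23689 genes were higher and 6770 lower. Depth limits the 12 untested genes and those under 1 CPM.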
